A study of Mus musculus with 5 samples.

Results

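The Nduf genes of the mouse were followed in kidney cortical tissue of *Fnip1* null and wildtype mice. They were chosen by name, as the genes whose symbol begins with Nduf, which gave 45 of the 24421 gene symbols counted. By known function, 36 of the 45 encode subunits of complex I, 7 encode factors that help to assemble it, and *Ndufa4* and *Ndufa4l2* carry the name although they are not counted among its subunits today. RNAseq was performed on 1 library for each of 3 *Fnip1*-/- mice (8637, 9121 and 9210) and 2 *Fnip1*+/+ mice (9055 and 9056), all with the C57BL6J background and between 11 and 18 weeks of age. The null allele came from chemical (ENU) mutagenesis and is constitutive, so every cell of the animal carries it, in the kidney and elsewhere. The control mice are *Fnip1*+/+ by their labels and are called wildtype here, while the study's text also calls controls of this experiment heterozygous. The labels give no treatment and no other allele.

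Complex I, or NADH:ubiquinone oxidoreductase, is the entry point of electrons from NADH into the mitochondrial respiratory chain. Its matrix arm takes electrons from NADH at a flavin, hands them along a chain of iron-sulfur clusters and delivers them to ubiquinone, and its membrane arm pumps protons. A small set of core subunits carries out the catalysis, some of them encoded in mitochondrial DNA and the others in the nucleus, and many accessory subunits surround this core. Assembly factors bind the unfinished modules and leave before the enzyme is complete. Proximal tubule cells of the renal cortex are rich in mitochondria and depend on respiration for solute transport. The comparison of the genotypes addresses whether transcripts of this enzyme differed in a tissue in which the study asked about oxidative metabolism.

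*Fnip1* itself was lower in all null mice. It was measured at 21.0, 16.0 and 16.9 normalized CPM (read counts brought to 1 library size) in null mice 8637, 9121 and 9210 and at 51.8 and 48.7 in wildtype mice 9055 and 9056. The log2 fold change of null over wildtype was -1.48 (SE 0.138) with an adjusted p of 0.033 in edgeR's quasi-likelihood test, the test behind every adjusted p below unless another is named. The fold change stayed negative when any 1 mouse was left out, but the adjusted p was then 0.122 without null mouse 9210, 0.216 without wildtype mouse 9055 and 0.508 without wildtype mouse 9056. Libraries held between 15799114 and 19132145 gene counts, and each Nduf gene had between 58 and 9894 counts in each mouse, so all 45 were among the 13874 genes that passed the filter on low counts. Log2 CPM correlated between pairs of mice at 0.955 to 0.992. Null mouse 9121 had 5954 *Xist* counts and 0 counts of *Ddx3y*, *Kdm5d* and *Uty*, whereas the other 4 mice had at most 24 *Xist* counts, so 1 null library differed from the others in sex-linked transcripts. Without it, 0 of the 45 members were past an FDR of 5%, the median log2 fold change was 0.03 and 27 were above 0, the same number as with it. Of the members 2 are X-linked, and null mouse 9121 lay between 8637 and the wildtype mouse 9056 in both, at 120.1 CPM for *Ndufa1* and 243 CPM for *Ndufb11*. Because whole tissue was sequenced, fewer cells of a type and less RNA per cell cannot be told apart in any value below.

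For some members, shared sequence limits what their counts can show. *Ndufs5* is shown because its copy spans the coding stretch and was itself counted. The copy is annotated at 319 bases, against 525 for the *Ndufs5* transcript. *Ndufs5*, an accessory subunit of the membrane arm, lies on the minus strand at chr4:123712710-123718202 (GRCm38), and the processed pseudogene *BC002163*, a copy of its transcript, lies on the plus strand at chr16:42955631-42955949. Their coding stretches of 318 bases differ at 2 positions (99.4% identity), both within the first 120 bases, which are shown with the differing bases in capitals.

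Ndufs5: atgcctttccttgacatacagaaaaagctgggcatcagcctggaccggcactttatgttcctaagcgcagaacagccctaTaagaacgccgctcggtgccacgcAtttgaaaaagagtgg

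BC002163: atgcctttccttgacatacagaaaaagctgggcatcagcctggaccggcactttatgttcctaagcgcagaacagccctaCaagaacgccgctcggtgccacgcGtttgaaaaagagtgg

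Of all stretches of 50 bases in the *Ndufs5* transcript, 41.2% occur letter for letter in the copy, and 56.7% do so when up to 2 mismatches are allowed. A read from a stretch that is identical in both can align to both places, and reads without a unique alignment were left out of the counts. Whether reads with mismatches to the copy, or with a mate outside the shared stretch, were placed uniquely was not examined. *Ndufs5* was counted at 4.54, 4.75 and 5.59 CPM in null mice 8637, 9121 and 9210 and at 3.60 and 4.69 in wildtype mice 9055 and 9056, while *BC002163* was counted at 5.72, 6.60 and 6.60 and at 6.03 and 7.49 in the same order. The low counts of *Ndufs5* are therefore uncertain as a level of its transcript, and how far shared sequence lowered them was not tested. Exact stretches of 50 bases shared with another annotated gene were found in 22 of the 45 members. They exceeded 25% of the transcript in 7, among them *Ndufs3* (39.7%, and 78.4% when up to 2 mismatches are allowed), *Ndufb4* (37.0%), *Ndufb6* (34.1%) and *Ndufb2* (33.5%), and 23 members shared none. These shares do not separate copies elsewhere in the genome from genes that overlap the member at its own place. The only gene sharing with *Ndufb6*, *Smim27*, overlaps its exons. Overlapping genes are also among those sharing with *Ndufs3* (*Kbtbd4*) and *Ndufb2* (*Gm16272* and *Gm42420*). In 19 members annotated exons overlap those of another gene on either strand. Whether reads on both were left out can depend on the use of strand in counting, which is not given.

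The abundance of the transcripts, expressed per length as CPM per kb of the principal transcript and averaged over the 5 mice, followed the roles of the members. The 36 subunits had a median of 171 CPM per kb with an interquartile range of 142 to 248. *Ndufb9*, an accessory subunit of the distal membrane arm, was the most abundant subunit at 452 CPM per kb, and apart from *Ndufs5* at 8.83 the lowest was *Ndufab1*, the mitochondrial acyl carrier protein, at 35.5. Without *Ndufs5* the subunits thus covered a 12.7-fold range. Its lower end rests on the transcript length used for *Ndufab1*, 3479 bases, the longest of any subunit. Before division by length, *Ndufab1* was at 111 CPM in wildtype mouse 9055 to 138 in null mouse 9210. The 7 assembly factors lay between 13.3 and 23.9 CPM per kb, below every subunit other than *Ndufs5*. *Ndufa4*, which is now known as a subunit of cytochrome c oxidase, was the most abundant Nduf transcript at 719 CPM per kb, and its paralog *Ndufa4l2*, known for induction by hypoxia, was the least abundant at 5.19.

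**Figure D1:**
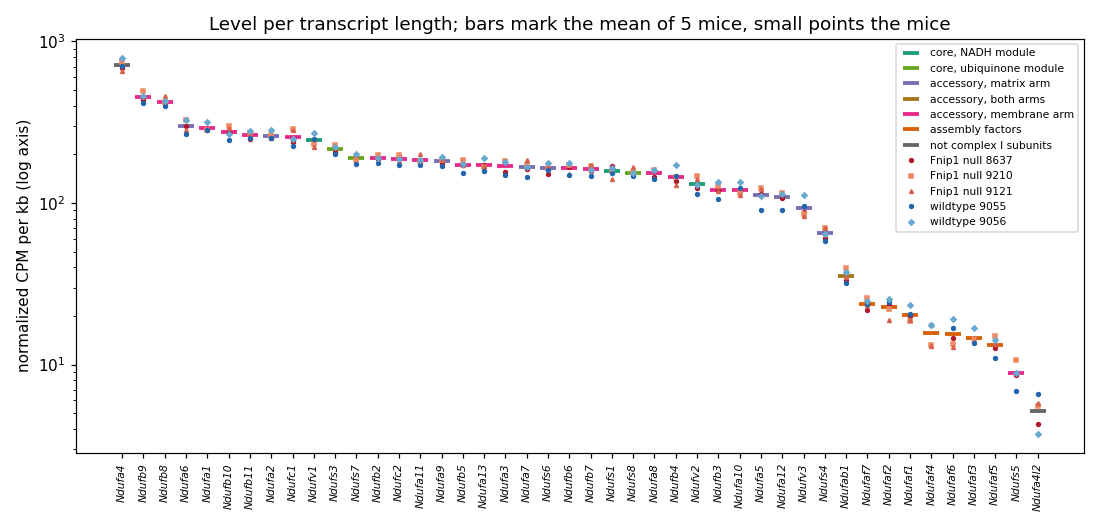
Normalized CPM per kb of transcript (log axis) of 44 Nduf genes in order of their mean, with coloured bars for the mean of 5 mice by role and small points for single mice. The assembly factors lie between 13.3 and 23.9, below all subunits other than *Ndufs5*, and the points of both genotypes lie close to each bar.

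No Nduf gene passed the threshold for a difference between the genotypes. When both an FDR of 5% and at least 2-fold were asked for, 0 of 45 members were called, where 0.526% of all 13874 genes tested were called. At the FDR alone, 0 of 45 were past the threshold against 0.678% of all genes, and adjusted p-values ran from 0.136 to 0.988. At an unadjusted p below 0.05, 2 of 45 members (4.44%) were counted, *Ndufaf6* and *Ndufv3*, against 25.1% of all genes. No member passed an FDR of 5% in edgeR's exact test, which called 9.77% of all genes, in its likelihood ratio test, which called 10.6%, or in DESeq2, which called 10.7%, and their unadjusted p was below 0.05 for 1, 1 and 2 members. With so few mice these tests cannot show that expression was equal, but the 95% intervals limit the difference. The interval of each of the 45 members lay within 2-fold in either direction, 37 lay within 0.5 on the log2 scale, and the outermost bounds were -0.70 for *Ndufaf6* and 0.77 for *Ndufs5*.

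The fold changes of the members were small beside those of other genes. Log2 fold changes ran from -0.39 for *Ndufaf6* to 0.25 for *Ndufs5*, with 27 above 0 and 18 below, or 37 above 0 with library size scaling. Their median was 0.02, against 0.00 for all genes tested, of which 7009 were above 0 and 6865 below. The median size of the log2 fold change regardless of sign was 0.09 in the members and 0.22 in all genes. Transcripts of higher count are measured with less error, and the median SE was 0.105 for members and 0.152 for all genes. In 10 members (22.2%) all null mice lay between both wildtype mice, which was the case in 3.58% of all genes.

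**Figure D2:**
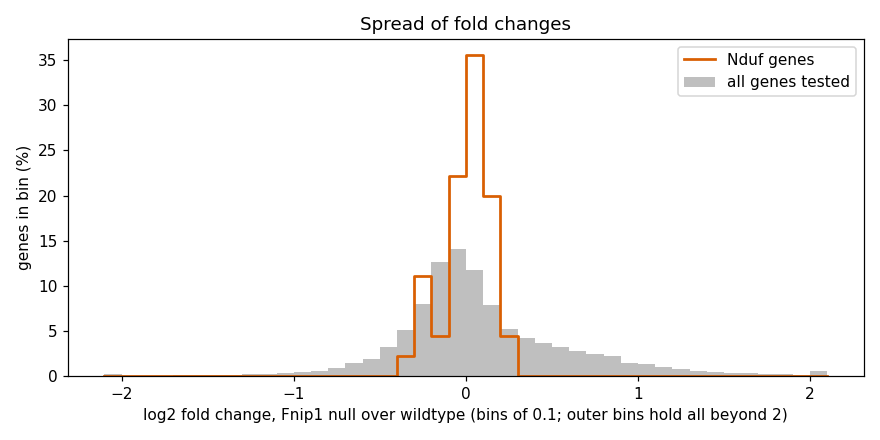
Share of genes (%) in bins of 0.1 of the log2 fold change of *Fnip1* null over wildtype, for the Nduf genes (line) and all 13874 genes tested (grey bars). The members fall between -0.39 and 0.25, while all genes extend beyond 2 in both directions.

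Taken as a sum, transcripts of the family were as abundant in the null as in the wildtype kidneys. The summed CPM of the 45 members was 6869 in null mouse 8637, 6930 in 9121 and 7170 in 9210, and 6588 and 7381 in wildtype mice 9055 and 9056. All null mice therefore lay between the wildtype mice. The log2 ratio of the mean sums was 0.00. This value depends on the scaling: as a share of all gene counts, with no normalization of library composition, the members took 0.676%, 0.755% and 0.763% in the null mice and 0.629% and 0.674% in the wildtype mice, a log2 ratio of 0.17. With that scaling the median log2 fold change of all genes tested was also 0.17.

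Nearly all members differed in the same direction between both wildtype mice. In 44 of the 45 members the level was higher in wildtype mouse 9056 than in 9055, with *Ndufa4l2* as the exception. The median log2 gap of 9056 over 9055 was 0.17 in the members and 0.01 in all genes tested, while the median size of the gap regardless of sign was 0.17 in the members and 0.15 in all genes. The size of the gap exceeded that of the fold change in 33 of 45 members (73.3%) and in 37.4% of all genes. A difference between single mice varies more than one between group means, so this count is a description and no test of the genotype. Which wildtype mouse served as control thus set the sign for many members: without 9055, 15 of 45 fold changes were above 0 with a median of -0.07, and without 9056, 34 were above 0 with a median of 0.11.

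**Figure D3:**
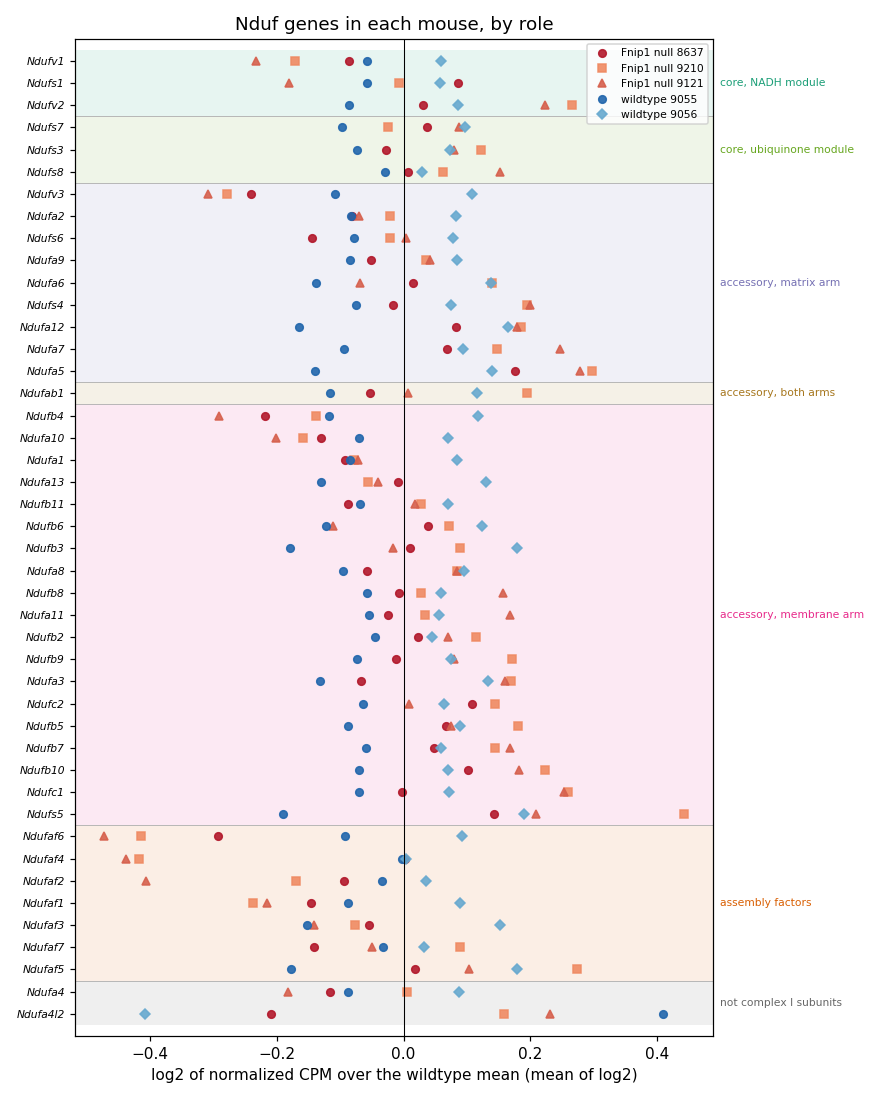
Log2 of the normalized CPM of 44 Nduf genes in each mouse, relative to the mean of the log2 values of the wildtype mice (0), with members grouped by role. Wildtype mouse 9056 lies to the right of 9055 in 43 of the 44, and all null mice lie to the left of both wildtype mice in 7 members, 3 of them assembly factors.

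The nuclear core subunits of the NADH module, which oxidizes NADH, had fold changes on both sides of 0, and none was past the threshold. *Ndufv1*, which binds the flavin and NADH, was measured at 409, 369 and 385 CPM in null mice 8637, 9121 and 9210 and at 417 and 452 in wildtype mice 9055 and 9056. Each null value was below both wildtype values, with a log2 fold change of -0.16 (SE 0.104, adjusted p = 0.367). *Ndufv2*, which holds an iron-sulfur cluster beside it, was at 211, 241 and 248 CPM in the null and 194 and 219 in the wildtype mice, in the same order. Null mouse 8637 fell between the wildtype mice and the other null mice lay above them, with a log2 fold change of 0.17 (SE 0.113, adjusted p = 0.374). *Ndufs1*, the largest subunit, which carries several iron-sulfur clusters, was at 449, 374 and 421 CPM in the null and 407 and 441 in the wildtype mice. Here 1 null mouse was above, 1 below and 1 between the wildtype mice, and the log2 fold change was -0.03 (95% interval -0.32 to 0.26).

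The core subunits of the ubiquinone module also had small fold changes, and none was past the threshold. *Ndufs7*, which holds the last cluster before ubiquinone, was at 146, 151 and 139 CPM in null mice 8637, 9121 and 9210 and at 133 and 152 in wildtype mice 9055 and 9056. All null values lay inside the wildtype pair. *Ndufs3*, a core subunit without a cofactor whose counts are limited by shared sequence, was at 217, 234 and 241 CPM in the null and 210.0 and 233 in the wildtype mice, and *Ndufs8*, an iron-sulfur subunit, was at 148, 164 and 154 against 144 and 150.1. The log2 fold changes of these 3 genes ran from 0.03 to 0.07 with adjusted p-values of at least 0.621, and over the 7 nuclear core subunits the intervals reached from -0.42 to 0.45. The 3 were above 0 with TMM, RLE and library size scaling, but *Ndufs3* and *Ndufs7* were below 0 without wildtype mouse 9055.

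Of the 9 accessory subunits of the matrix arm, 6 had a fold change above 0 and 3 below (8 and 1 with library size scaling), and 0 were past the threshold. *Ndufv3*, a small accessory subunit of the NADH module, was measured at 139, 132 and 135 CPM in null mice 8637, 9121 and 9210 and at 152 and 177 in wildtype mice 9055 and 9056. The null values did not reach the wildtype values, with a log2 fold change of -0.28 (SE 0.0962, adjusted p = 0.15), the lowest of all subunits. *Ndufa5*, which sits at the ubiquinone module, was at 99.3, 107 and 108 CPM in the null and 79.8 and 96.8 in the wildtype mice. All null mice were higher, 8637 only slightly above wildtype mouse 9056, with a log2 fold change of 0.24 (SE 0.11, adjusted p = 0.226). The other 7 had log2 fold changes from -0.06 (*Ndufa2*) to 0.15 (*Ndufa7*).

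Of the 19 accessory subunits of the membrane arm, 13 were above 0 and 6 below (17 and 2 with library size scaling), with a median of 0.06, and 0 were past the threshold. *Ndufb4*, of the distal part of the arm, was at 132, 126 and 140.1 CPM in the null mice and 142 and 167 in the wildtype mice. The null mice lay below both wildtype mice, with a log2 fold change of -0.22 (SE 0.105, adjusted p = 0.247), in a gene that shares 37.0% of its stretches of 50 bases with other genes. *Ndufb10*, also of the distal part, was at 201, 213 and 219 CPM against 179 and 197, with all null mice higher and a log2 fold change of 0.17 (SE 0.0938, adjusted p = 0.309). *Ndufc1*, of the proximal part, was at 74.96, 89.6 and 89.9 CPM against 71.5 and 78.9, so that null mouse 8637 lay between the wildtype mice (log2 fold change 0.17, adjusted p = 0.383). *Ndufb9*, the most abundant subunit per kb, was at 305, 325 and 346 CPM against 292 and 324. The uncertain *Ndufs5* had the highest fold change of all members, 0.25 (95% interval -0.26 to 0.77). *Ndufab1*, which takes part in both arms and in mitochondrial fatty acid synthesis, had a log2 fold change of 0.05.

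**Figure D4:**
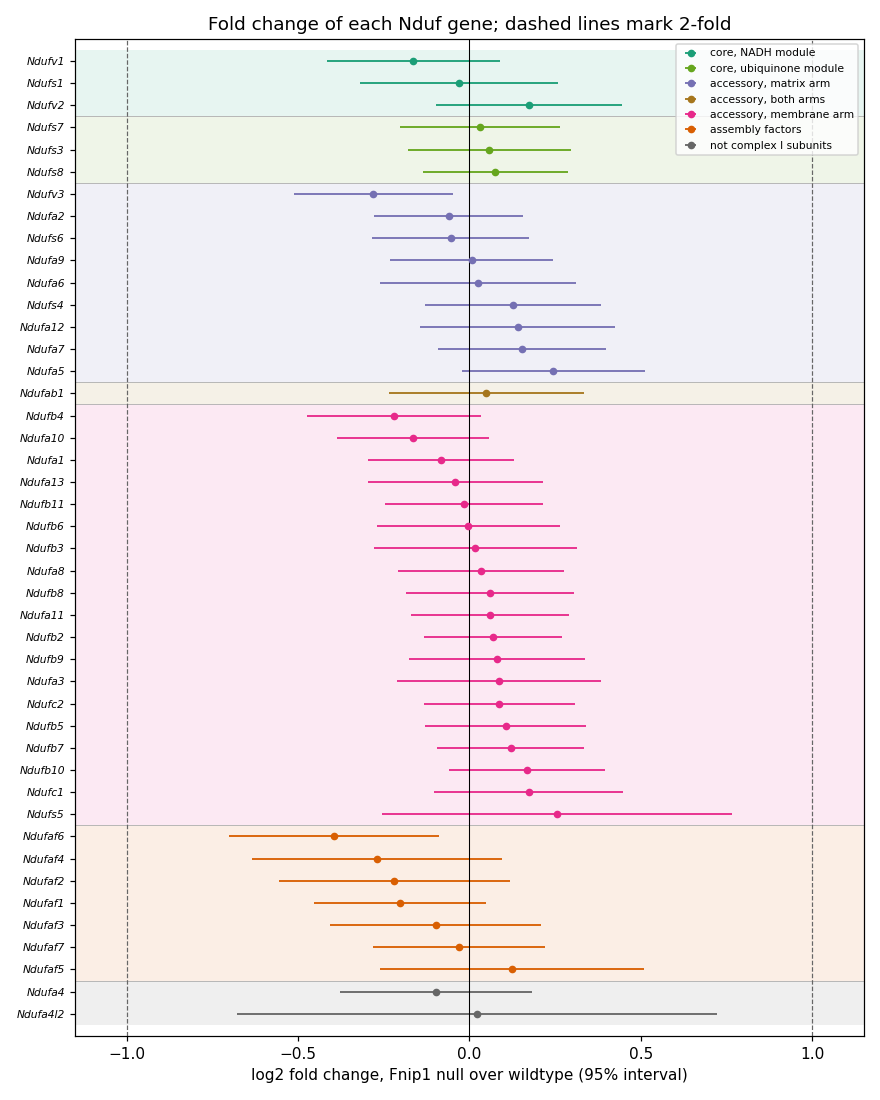
Log2 fold change of *Fnip1* null over wildtype for 44 Nduf genes, each with its 95% interval, grouped and coloured by role, with dashed lines at 2-fold. Intervals of 42 of the 44 include 0, those of *Ndufaf6* and *Ndufv3* do not before adjustment, and none reaches a dashed line.

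None of the assembly factors was past the threshold. Of the 7 with an Nduf name, 6 had a fold change below 0, with a median of -0.20 on the log2 scale, against 0.00 for all genes tested, and with library size scaling 4 of 7 were below 0 with a median of -0.04, where the median of all genes was 0.17. Their summed CPM was 199, 178 and 188 in null mice 8637, 9121 and 9210, against 203 for wildtype mouse 9055 and 221 for 9056, so that all null mice were below both wildtype mice. All null mice were also below both in the sum of 10 proximal tubule markers, although 2 of these had fold changes above 0. The part of proximal tubule cells in the sum of the assembly factors was not tested. *Ndufaf6*, which acts early in assembly and resembles phytoene synthases, was measured at 15.9, 14.0 and 14.6 CPM in null mice 8637, 9121 and 9210 and at 18.2 and 20.7 in wildtype mice 9055 and 9056. Both wildtype mice were above every null mouse, and the log2 fold change of -0.39 (SE 0.127, adjusted p = 0.136) was the lowest of all members. *Ndufaf1*, a member of the complex that builds the membrane arm, was at 28.8, 27.5 and 27.1 CPM in the null and 30.0 and 33.9 in the wildtype mice, with a log2 fold change of -0.20 (SE 0.104, adjusted p = 0.273). *Ndufaf2*, which acts late, when the NADH module is attached, was at 15.8, 12.7 and 15.0 CPM against 16.5 and 17.3, with a log2 fold change of -0.22 (SE 0.139, adjusted p = 0.364). All null mice were below both wildtype mice in these 3 genes.

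*Ndufaf4*, a factor of the ubiquinone module, separated the null mice from each other. It was at 63.9 CPM in null mouse 8637, the same as in wildtype mice 9055 and 9056 with 63.6 and 63.9, and at 47.0 and 47.7 in null mice 9121 and 9210. The log2 fold change was -0.27 (SE 0.151, adjusted p = 0.309). Without null mouse 8637 it was -0.43 with an adjusted p of 0.0225, and *Ndufaf4* was then 1 of 45 members past an FDR of 5%, in a fit that called 20.1% of all genes. *Ndufaf3*, its partner in assembly, was at 21.8, 20.5 and 21.5 CPM in the null and 20.4 and 25.2 in the wildtype mice, with every null mouse inside the wildtype pair. *Ndufaf7*, a methyltransferase, was at 38.3, 40.8 and 44.9 CPM against 41.3 and 43.2, and *Ndufaf5*, which hydroxylates *Ndufs7*, was at 14.7, 15.6 and 17.6 against 12.9 and 16.5.

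The null mice did not overlap the wildtype mice in 9 members. In 7 of 45 all null mice were below both wildtype mice, namely *Ndufa10*, *Ndufaf1*, *Ndufaf2*, *Ndufaf6*, *Ndufb4*, *Ndufv1* and *Ndufv3*, and this order was found in 23.0% of all genes tested. In 2 of 45, *Ndufa5* and *Ndufb10*, all null mice were above both wildtype mice, as in 22.9% of all genes. For any 1 gene taken alone, the smallest p that an exact permutation of 3 and 2 mice allows is 0.1.

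Assembly factors with other names were examined as a further list, of which 10 of 11 had counts. Their fold changes were below 0 in 8 and above 0 in 2, with a median of -0.17, and 0 were past the threshold, with library size scaling leaving 6 below 0. *Acad9*, an acyl-CoA dehydrogenase relative that works together with *Ndufaf1*, was at 91.6, 90.3 and 77.6 CPM in null mice 8637, 9121 and 9210 and at 117 and 134 in wildtype mice 9055 and 9056. Every null mouse was lower, with a log2 fold change of -0.54 (SE 0.111, adjusted p = 0.0764). It passed an FDR of 5% in the exact test (adjusted p = 0.0125), the likelihood ratio test (adjusted p = 0.0122) and DESeq2 (adjusted p = 0.00587), and in the quasi-likelihood test without null mouse 8637 (adjusted p = 0.0217), and over all alternatives its adjusted p ran from 0.00587 to 0.544. The highest of the list was *Foxred1*, a flavoprotein, at 0.06. Over both lists of assembly factors, which leave out *Ndufaf8*, 14 of 17 were below 0, as were 6865 of all 13874 genes tested. The median of the 17 was -0.18, against 0.00 for all genes. With library size scaling 10 of 17 were below 0, with a median of -0.02, where the median of all genes was 0.17. Without wildtype mouse 9055 all 17 were below 0, and without 9056 11 of 17 were. *Ndufaf8*, which is counted under the symbol *1810043H04Rik*, is therefore not among the 45. It is also not among the 17, although *Dmac1* and *Dmac2* entered the second list under the symbols *Tmem261* and *Atp5sl*. Its log2 fold change of 0.12 (adjusted p = 0.607) was above 0, against the direction of most of the 17. The core subunits encoded in mitochondrial DNA and *Ndufb1* were not analysed here.

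Both genes outside complex I overlapped between the genotypes. *Ndufa4* was at 421, 402 and 458 CPM in null mice 8637, 9121 and 9210 and at 429 and 484 in wildtype mice 9055 and 9056, with a log2 fold change of -0.10 (95% interval -0.38 to 0.18). *Ndufa4l2* was at 4.01, 5.44 and 5.17 CPM against 6.15 and 3.49, a log2 fold change of 0.02 whose interval from -0.68 to 0.72 is the widest of the members.

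Null mouse 8637 was the null mouse closest to the wildtype mean in 31 of 45 members (68.9%) and in 57.3% of all genes tested. The median log2 deviation of the 36 subunits from the wildtype mean was -0.01 in 8637, 0.07 in 9121 and 0.09 in 9210. For the 7 assembly factors it was -0.09, -0.22 and -0.17 in the same order, and -0.09 and 0.09 in wildtype mice 9055 and 9056, so that null mouse 8637 and wildtype mouse 9055 were alike.

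Markers of cell types were measured in the same libraries. The summed CPM of 10 proximal tubule markers was 15189 to 21027 in the null mice and 22425 to 26060 in the wildtype mice, with 8 of the 10 below 0 and none past the FDR. In 5 of the 10 all null mice were below both wildtype mice, an order found in 23.0% of all genes tested. In the other direction, all null mice were above both wildtype mice in *Slc5a2* (log2 fold change 0.26) and *Slc5a12* (0.63). Over 7 markers of thick ascending limb and distal tubule it was 8375 to 12095 against 7893 to 8786, with 6 of the 7 above 0. Leukocyte markers summed to 84.3 to 179 CPM in the null and 90.3 to 109 in the wildtype mice. Of 9 tested, 8 were above 0 and none was past the FDR. In 6 of the 9 every null mouse was above both wildtype mice, an order found in 22.9% of all genes tested. The macrophage receptor *Csf1r* had the opposite order, and without it the sums were 46.0 to 115 CPM in the null and 21.9 to 36.3 in the wildtype mice. *Cd79a*, a B cell marker, was at 0 counts in all null mice, but at only 12 and 6 counts in wildtype mice 9055 and 9056. It did not pass the filter on low counts and was not tested. Adipocyte markers summed to 50.9 to 210 CPM in the null mice, highest in 9210, and 29.7 to 34.4 in the wildtype mice, with 4 of 4 tested above 0. *Fabp4*, which endothelial cells also express, made up 48.4 of the 50.9 CPM in null mouse 8637. Without it the adipocyte sums were 2.48, 28.8 and 72.2 CPM in null mice 8637, 9121 and 9210, against 2.55 for wildtype mouse 9055 and 4.69 for 9056, so that 8637 was not above the wildtype mice. No marker was at 0 in every mouse, and the markers of the labelled tissue were abundant in every library. Null mouse 8637 had the proximal tubule sum closest to the wildtype mice. The part of cell composition in the values of the Nduf genes was not tested.

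**Figure D5:**
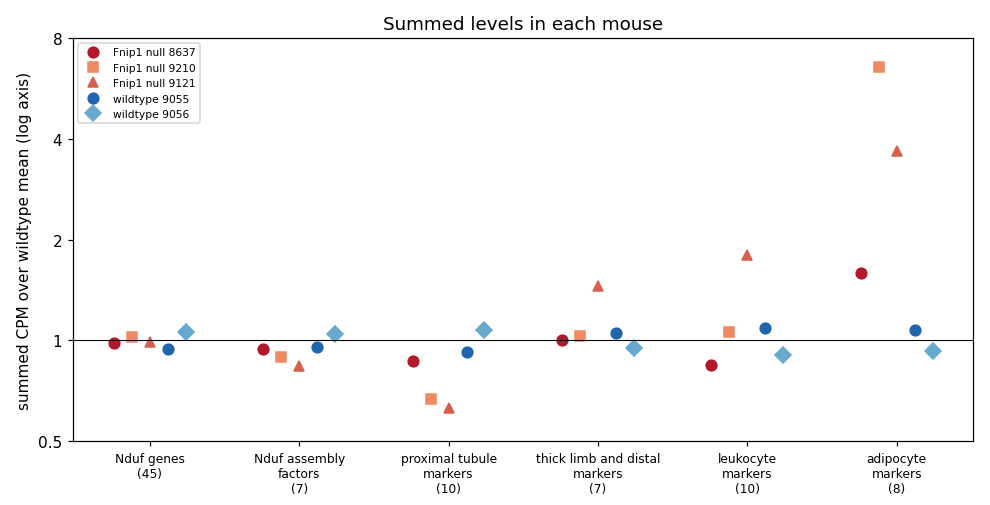
Summed normalized CPM of 2 groups of Nduf genes and 4 lists of cell type markers in each mouse, divided by the mean of the wildtype mice (log axis). The sums of all 45 Nduf genes in the null mice lie between those of the wildtype mice, the sums of the assembly factors and of the proximal tubule markers lie below both wildtype mice, and the adipocyte sums lie above them, in 8637 through *Fabp4* alone.

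Promoters of the members were searched for short motifs of factors known for mitochondrial genes, in RefSeq windows (GRCm38.p6) of 250 bases before to 50 after the gene start, on both strands. A window was found for 39 of the 45 members, and for 27025 genes in all. The latter were not limited to the 13874 genes tested, so the shares below do not compare the members with genes expressed in this tissue. The core of the NRF1 motif, CGCATGCG, was in 4 of 39 (10.3%) against 2.07% of all windows. The core of the YY1 motif, AAGATGGC, was in 7 (17.9%) against 3.19%, and these were *Ndufa3*, *Ndufa9*, *Ndufb8*, *Ndufc1*, *Ndufs4*, *Ndufs6* and *Ndufs7*. The ERR motif AAGGTCA was in 3 (7.69%) against 5.38%, the ETS core CCGGAAG in 5 (12.8%) against 9.93%, and the core TCACGTGA of the lysosomal CLEAR motif in 1, *Ndufa7* (2.56%), against 1.12%. The NRF1 and CLEAR letters read the same on both strands, and the last letters of the ETS core are the first of the YY1 core, so that these can overlap, but no member had both. The windows around the NRF1 core of *Ndufaf4*, the member that separated the null mice, at chr4:24897945-24898004 and of *Ndufa11*, a membrane arm subunit, at chr17:56717677-56717736 are shown on the plus strand, with the motif in capitals.

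Ndufaf4: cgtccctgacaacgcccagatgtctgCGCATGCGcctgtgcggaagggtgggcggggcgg

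Ndufa11: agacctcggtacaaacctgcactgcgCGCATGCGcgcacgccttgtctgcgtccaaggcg

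The motif begins 112 bases before the gene start in *Ndufaf4* and 59 before it in *Ndufa11*. *Ndufa11* was at 95.8, 109 and 99.8 CPM in null mice 8637, 9121 and 9210 and at 93.8 and 101 in wildtype mice 9055 and 9056, with a log2 fold change of 0.06. A match of letters describes the sequence and does not show that a factor binds there.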

How the data were processed

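RNA from flash-frozen kidney cortical tissue of 5 mice was sequenced by the authors from TruSeq libraries as paired 50-base reads. Per the labels and the study's methods, reads were aligned to mm10 with TopHat 2.1.0 and counted per gene symbol with HTSeq 0.6.1; whether strand was used is not given in the sources used here. The deposited values are raw counts per gene. Of all deposited counts, 28.3% to 31.4% per mouse were alignments that were not unique, 9.91% to 10.8% lay in no gene and 0.741% to 0.803% were ambiguous, and these stayed out of library sizes.

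The analysis used edgeR 4.0.16 with limma 3.58.1 under R 4.3.3. Genes with fewer than 10 counts in over 2 of the 5 mice were not tested. Libraries were normalized by TMM (factors 0.914 to 1.09), and 3 *Fnip1* null mice were compared with 2 wildtype mice by the quasi-likelihood test, with Benjamini-Hochberg adjustment over all 13874 genes. Depth was 15799114 to 19132145 gene counts, at which 3 counts correspond to 0.158 to 0.186 CPM; this floor covers counting error only. Intervals of fold changes are not adjusted. Correlations of log2 CPM used log2(CPM + 0.5). DESeq2 1.42.0, edgeR's exact and likelihood ratio tests, RLE and library size scaling, filters, and leaving out each mouse were alternatives, and the legacy quasi-likelihood method was chosen after seeing the data. The scripts were tested on simulated data.

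Members and lists were chosen with earlier results of these data known. Named genes were the 5 highest and 5 lowest fold changes, the nuclear core subunits, the assembly factors, *Ndufa4*, *Ndufa4l2*, the 5 most abundant, any member past the FDR, and the extremes of the list of other assembly factors. *Ndufa2*, *Ndufa7*, *Ndufa10*, *Ndufa11*, *Ndufab1* and *Ndufaf8*, as well as members named for shared sequence or motifs, were added after their values were seen. Marker lists were planned as whole lists, and the sums without *Csf1r* and without *Fabp4* were added to these. Coordinates and transcript lengths come from GENCODE M21 (GRCm38), matched by symbol, and promoters and sequences from GRCm38. Of the 45 members, 1 enters the counts and medians, but its own values are not reported here. The mice are separate animals, and no label pairs them across groups.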

Additional observations from a re-analysis of the deposited data

How the results depend on the processing

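With 2 wildtype mice, an arm of 1 mouse remained when either was left out, and that mouse was then assumed to vary like the null mice. No member was called at an FDR of 5% and 2-fold with the quasi-likelihood test or in any of 13 alternatives, and 1 passed the FDR alone in a single alternative. Leaving out 1 mouse gave 0 to 1 members past the FDR, 15 to 34 fold changes above 0, a median of -0.0667 to 0.113, a log2 ratio of summed CPM of -0.0828 to 0.0821 and a fold change of *Fnip1* of -1.61 to -1.40. With library size scaling the median was 0.190 (all genes 0.167) and the summed ratio 0.167, and the sign changed in 10 of 45 members, among the named genes in *Ndufs1* (0.129), *Ndufaf3* (0.066), *Ndufaf7* (0.135) and *Ndufa4* (0.0671). Leaving out 1 mouse changed the sign of 2 (8637), 4 (9121), 5 (9210), 12 (9055) and 9 (9056) of 45 members, among the named genes of *Ndufs1* (-0.0918 to 0.0389), *Ndufs3* (-0.0185 to 0.13), *Ndufs7* (-0.0677 to 0.128), *Ndufaf3* (-0.247 to 0.0582), *Ndufaf5* (-0.0475 to 0.310), *Ndufaf7* (-0.0952 to 0.0225) and *Ndufa4l2* (-0.338 to 0.478). The cause was not tested. No paired analysis was possible because the mice share no replicate numbers.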
